A study of Mus musculus with 48 samples.

Results

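Brain and retina of wild-type C57BL/6 mice were compared at postnatal day 42 (P42), when both tissues are mature. The labels alone set the comparison: it takes the libraries labelled P42 brain and P42 retina, 8 of the series' 48, with 2 replicates of each tissue by RNA-seq of poly(A) mRNA and 2 by Ribo-seq, which sequences the mRNA stretches that ribosomes shield from nuclease (footprints). The study profiled brain, retina, heart, kidney, liver and lung by both assays at embryonic day 15.5 (E15.5) and at P42. The labels give no treatment, sex or brain region, and they do not say how many animals went into a library. Values are the authors' TPM, transcript levels scaled by gene length and by the total of each library. A difference is the mean log2(TPM + 1) of brain minus that of retina, with the difference of the median gene taken off, and a gene was called when its difference was at least 1 in size with an adjusted p below 0.05 (limma, Benjamini-Hochberg over all genes tested).

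Both tissues derive from the neural tube, and both hold neurons that release glutamate or GABA. In the retina, photoreceptors turn light into a change of membrane voltage through a G protein and a phosphodiesterase, and release glutamate steadily from ribbon synapses onto bipolar cells, which pass the signal to amacrine and ganglion cells. In the forebrain, glutamatergic cortical neurons contact dendritic spines whose signalling depends on calcium and CaM kinase II, and oligodendrocytes wrap axons in myelin. The axons of the mouse retina are not myelinated inside the eye. In bulk tissue, fewer cells of a type and less RNA per cell cannot be told apart.

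Of 14604 genes tested by mRNA, 3130 were higher in brain (21.4%) and 3009 were lower (20.6%). Of 13210 tested by footprints, 2056 were higher (15.6%) and 1690 lower (12.8%). The number of calls was uneven between directions among the largest differences. At 8 or more log2, 5 genes were higher in brain and 33 lower by mRNA, and 1 was higher and 25 lower by footprints. At 5 or more these were 73 and 128 by mRNA and 26 and 98 by footprints. At 3 or more they were nearer to each other, with 435 and 402 by mRNA and 221 and 256 by footprints. Among 12832 genes tested by both assays, 1658 were higher and 1398 lower by both, which is 57.2% of the mRNA calls and 84.8% of the footprint calls. Across those genes the differences of the assays correlated with Pearson r = 0.894, a description over genes that are not independent of each other. The median gene's difference, which was taken off, was -0.24 log2 by mRNA and 0.54 by footprints. With deposited values not centred, 2506 genes were higher and 3836 lower by mRNA, and 3979 higher and 856 lower by footprints, so the balance of directions depends on the scaling, and the counts below are relative to the median gene.

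The defining markers were checked in every library. The brain libraries held Mbp, Gfap, Neurod6 and Camk2a high, and the retina libraries held Gnat1, Crx, Nrl and Grm6 high, in both assays and with no overlap between tissues. Replicates correlated across genes with r of 0.997 in brain and 0.996 in retina by mRNA, and of 0.997 and 0.987 by footprints. The genes listed summed to 40.4% and 37.2% of the TPM total in brain footprint libraries and to 26.2% and 27.5% in those of retina, against 87.3% to 88.7% in the RNA-seq libraries. Rod transcripts were seen at low levels in other tissues of the series: in heart, kidney, liver and lung Gnat1 reached 17.2 TPM by mRNA and ran from 0.390 to 9.17 TPM by footprints, ranges that hold the Gnat1 values of brain.

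The largest differences were those of rod phototransduction, whose 20 listed genes were all lower in brain by both assays (median difference -9.31 by mRNA and -9.38 by footprints). Their mRNA summed to 488 and 502 TPM in brain, against 73608 and 69529 TPM in retina, that is 0.0488% and 0.0502% of all TPM in brain and 7.36% and 6.95% in retina. Gnat1 (chr9:107674474-107679712, minus strand), the rod transducin alpha subunit, had 7.48 and 10.1 TPM in brain, against 22299.6 and 18669.9 TPM in retina by mRNA (difference -10.80, SE 0.165, adjusted p = 5.03e-09). Its footprints were 3.58 and 0.7 TPM in brain, against 6258 and 5724 TPM in retina (-11.60). Both brain libraries stood far below both retina libraries by each assay. Transducin's partners did not share one pattern. Gngt1, its rod gamma subunit, was nearly absent from brain with 0.628 and 0.518 TPM in brain, against 1232 and 1493 TPM in retina (-9.52). The beta subunit Gnb1, used by many G proteins, was plentiful in both tissues with 424 and 435 TPM in brain, against 3908 and 3867 TPM in retina (-2.94).

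The effector of transducin is the cGMP phosphodiesterase. Its inhibitory subunit Pde6g had 1.38 and 2.21 TPM in brain, against 3635 and 4099.9 TPM in retina (-10.21). The catalytic Pde6a and Pde6b differed by -9.71 and -9.73. The rod cGMP-gated channel that closes in light, Cnga1 and Cngb1, differed by -8.45 and -7.91. Proteins that end or tune the response were as one-sided. Recoverin (Rcvrn), a calcium sensor of photoreceptors, had 1.02 and 2.33 TPM in brain, against 4336 and 4613 TPM in retina (-10.51). Pdc, which binds transducin's beta and gamma subunits, had 1.2 and 0.966 TPM in brain, against 3594 and 3712 TPM in retina (-10.54). Rod arrestin (Sag) had 1.72 and 2 TPM in brain, against 1658 and 1970.2 TPM in retina (-9.07). The photoreceptor kinase Grk1 differed by -8.91, and the cyclase Gucy2e and its activator Guca1a by -6.66 and -9.28. The smallest difference of the list was that of Rgs9, which speeds the shut-off of transducin and is also known from the striatum. It had 35.5 and 30.8 TPM in brain, against 279 and 135 TPM in retina (-2.28, adjusted p = 0.000175). Its membrane anchor Rgs9bp had 0.335 and 0.409 TPM in brain, against 663 and 542 TPM in retina (-8.54), so in brain the anchor was near 0 where Rgs9 was not.

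**Figure D1:**
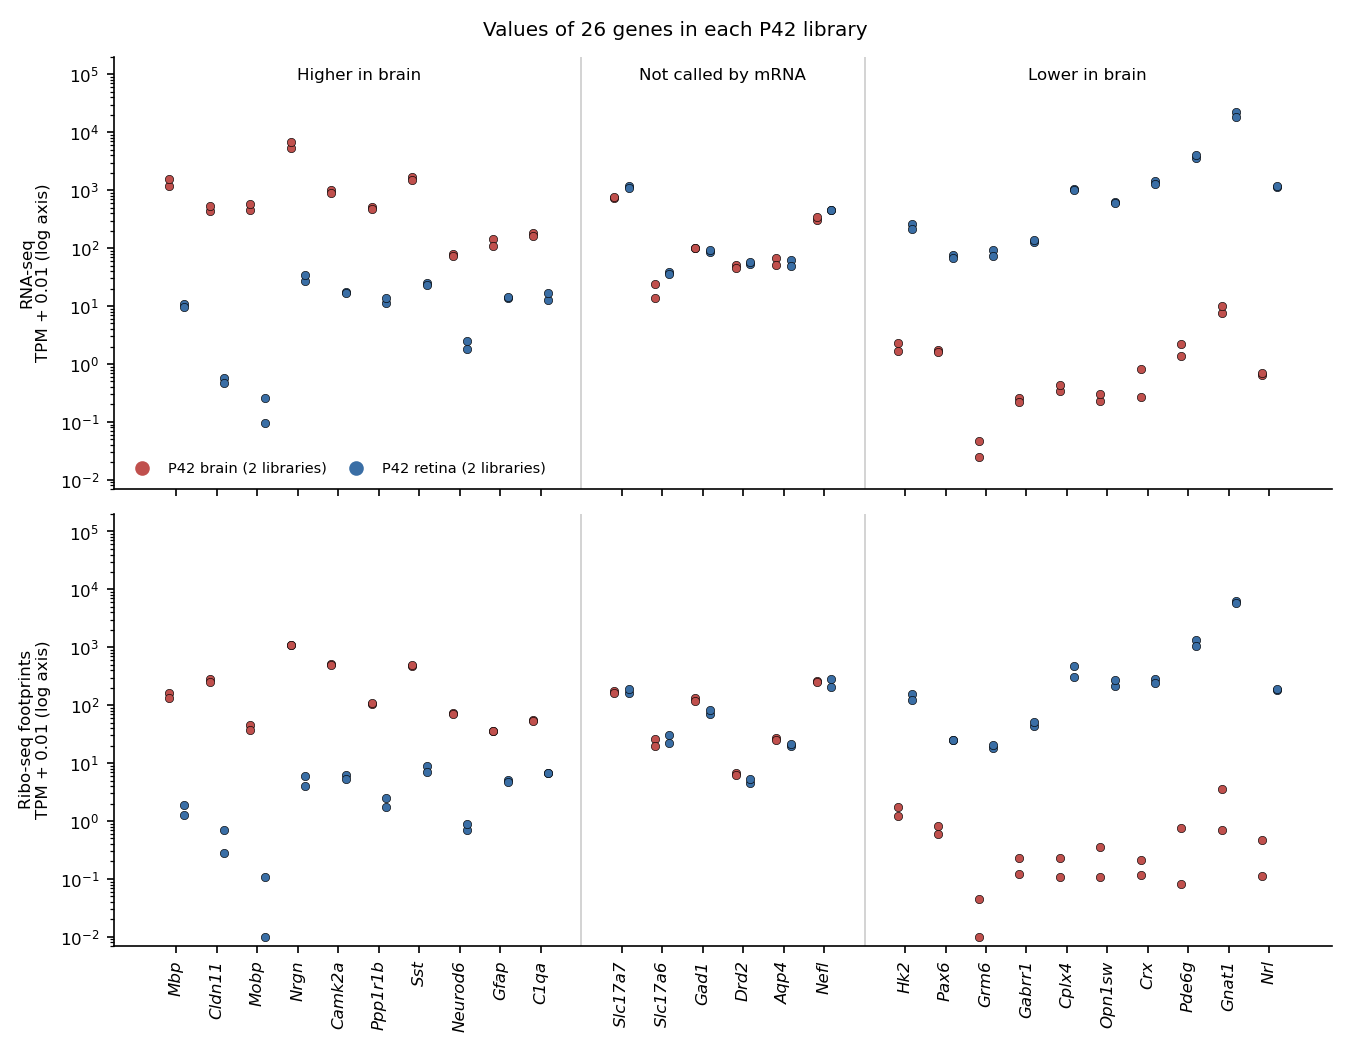
TPM (log axis, 0.01 added so that zeros can be drawn) of 26 genes in each library, RNA-seq above and footprints below, with brain in red on the left of each pair and retina in blue on the right. Points are single libraries. Genes are grouped as higher in brain, not called by mRNA, and lower in brain, and the replicates of a tissue lie close together next to the gap between tissues for Gnat1 (7.48 and 10.1 TPM in brain by mRNA, against 22299.6 and 18669.9 TPM in retina).

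Promoters of rod genes were examined because the rod genes moved together. CRX, the cone-rod homeobox factor, is known to bind TAATCC, and this core was searched on both strands (GGATTA on the other) in the 250 bases before the annotated start. Of the 20 rod genes, 13 had a promoter in the RefSeq table (GRCm38.p6), and 7 of these held the core (53.8%). Over all 27025 genes with a promoter there, the share was 7.21%. Counts and shares are of genes, each taken by its promoter with the most cores. At least 2 cores stood in a promoter of 15.4% of the rod genes and of 0.35% of all genes. The core stood in 1 of 7 cone promoters (14.3%), 6 of 17 outer segment promoters (35.3%), 3 of 9 ribbon synapse promoters (33.3%) and 3 of 13 bipolar cell promoters (23.1%). On the brain side it stood in 2 of 19 myelin (10.5%), 2 of 18 astrocyte (11.1%), 2 of 20 postsynaptic (10.0%) and 1 of 19 forebrain transcription factor promoters (5.26%). A match describes the letters of the window and shows no binding. The promoters of Sag (chr1:87803430-87803679, plus strand), Cngb1 (chr8:95306586-95306835, minus strand, with a pair of cores) and Rbp3 (chr14:33953753-33954002, plus strand) were picked to show the core from those that hold it, 5′ to 3′ on the gene's strand, with the core in capitals. The promoters of Pdc, Pde6b and Grk1, and that of the outer segment gene Prph2, held none. Their mRNA differences were -10.54, -9.73, -8.91 and -10.32, next to -9.07, -7.91 and -10.23 for Sag, Cngb1 and Rbp3.
Sag: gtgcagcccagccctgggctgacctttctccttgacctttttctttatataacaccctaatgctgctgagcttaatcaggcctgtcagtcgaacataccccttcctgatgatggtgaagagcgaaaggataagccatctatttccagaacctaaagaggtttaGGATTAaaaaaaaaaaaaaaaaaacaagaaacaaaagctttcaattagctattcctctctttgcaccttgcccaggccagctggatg
Cngb1: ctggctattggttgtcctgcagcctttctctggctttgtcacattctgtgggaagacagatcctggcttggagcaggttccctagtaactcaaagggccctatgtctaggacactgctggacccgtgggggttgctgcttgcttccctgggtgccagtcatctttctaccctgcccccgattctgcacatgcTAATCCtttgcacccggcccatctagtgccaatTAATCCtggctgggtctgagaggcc
Rbp3: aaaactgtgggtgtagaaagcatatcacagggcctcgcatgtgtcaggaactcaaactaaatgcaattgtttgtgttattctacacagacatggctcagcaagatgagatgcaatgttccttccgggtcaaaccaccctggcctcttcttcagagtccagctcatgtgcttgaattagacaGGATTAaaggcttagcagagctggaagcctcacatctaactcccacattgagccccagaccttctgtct

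Cone genes were lower in brain in 11 of 12 cases by each assay (median -6.71 by mRNA and -6.43 by footprints). The short-wave pigment Opn1sw had 0.224 and 0.29 TPM in brain, against 629.9 and 595 TPM in retina (-8.69). The middle-wave pigment Opn1mw had 0.576 and 0.95 TPM in brain, against 413 and 429.8 TPM in retina (-7.68). Exons of Opn1sw overlap those of Calu. Cone transducin (Gnat2 and Gnb3), cone arrestin (Arr3) and the cone phosphodiesterase Pde6c differed by -7.42, -7.70, -6.99 and -6.43. The retinal levels of Opn1sw were far below those of Gnat1 on the same length-scaled TPM. The 1 gene of the list higher in brain was Slc24a2, the sodium, calcium and potassium exchanger known from cones, with 86.7 and 119 TPM in brain, against 24.8 and 18.6 TPM in retina by mRNA (2.42). Its footprints were 94.4 and 79.7 TPM in brain, against 8.85 and 9.04 TPM in retina (2.61).

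The outer segment, the stacked membrane organelle that holds the pigment, and its connecting cilium gave 20 of 20 genes lower in brain by mRNA (median -7.23) and 19 of 20 by footprints. Peripherin (Prph2), which shapes the disc rims, had 2.48 and 3.55 TPM in brain, against 5777 and 6247 TPM in retina (-10.32). Its partner in the rims, Rom1, had 12.2 and 12.7 TPM in brain, against 4278 and 4827 TPM in retina (-8.17). Rbp3, the retinoid carrier that photoreceptors secrete, had 1.11 and 1.4 TPM in brain, against 3532 and 2882 TPM in retina (-10.23). Aipl1, a chaperone of the phosphodiesterase, had 0.233 and 0.406 TPM in brain, against 759 and 782 TPM in retina (-8.96). Tulp1, which serves traffic to the outer segment, had 0.29 and 0.381 TPM in brain, against 658 and 726 TPM in retina (-8.78). The gene not called by footprints was Rpgr, a cilium protein of many tissues, at 4.66 and 3.98 TPM in brain, against 4.91 and 4.8 TPM in retina (-0.68). Visual cycle genes, which remake the chromophore partly in the pigment epithelium, were lower in brain in 8 of 14 tested, with Rdh12 of photoreceptors at 1.74 and 1.66 TPM in brain, against 540.4 and 574 TPM in retina (-7.46). Rpe65, the isomerase of the pigment epithelium, had 1.06 and 1.01 TPM in brain, against 14 and 30.2 TPM in retina by mRNA (-3.17). Its footprints were 1.83 and 1.14 TPM in brain, against 11.4 and 36.5 TPM in retina (-3.67), and the second retina library was the higher in both assays.

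Retinal transcription factors were lower in brain in 28 of 31 tested by mRNA (median -4.23) and 26 of 28 by footprints (median -3.74), with none higher. Crx (chr7:15865947-15879968, minus strand) had 0.259 and 0.811 TPM in brain, against 1459.9 and 1274 TPM in retina (-9.58, SE 0.174, adjusted p = 1.01e-08). Nrl, which directs photoreceptor precursors to the rod fate, had 0.632 and 0.676 TPM in brain, against 1127 and 1194 TPM in retina (-9.22). Its target Nr2e3 had 0.267 and 0.46 TPM in brain, against 591 and 613 TPM in retina (-8.55). Footprints of Crx and Nrl differed by -8.36 and -7.74. Factors of the eye field were lower in brain as well. Rax had 0.588 and 0.283 TPM in brain, against 208 and 275 TPM in retina (-7.16). Otx2, which acts upstream of Crx, had 2.75 and 0.975 TPM in brain, against 178 and 174 TPM in retina (-5.79). Six3, also used in the forebrain, had 5.78 and 6.84 TPM in brain, against 70.7 and 70.6 TPM in retina (-3.06). Pax6, kept in amacrine and ganglion cells and in some forebrain neurons, had 1.72 and 1.58 TPM in brain, against 75.8 and 68.7 TPM in retina by mRNA (-4.55). Its footprints were 0.799 and 0.588 TPM in brain, against 25.5 and 25.2 TPM in retina (-4.50). Not called by mRNA were 3, Lhx2, Bhlhe22 and Onecut2, which also serve in the forebrain or elsewhere in the nervous system. Lhx2 had 46.2 and 42.2 TPM in brain, against 33.3 and 34.5 TPM in retina (0.61), and Bhlhe22 and Onecut2 differed by 0.27 and -0.44.

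Bipolar cell genes were lower in brain in 14 of 16 by mRNA and 15 of 16 by footprints (median -4.48 in each). ON bipolar cells read photoreceptor glutamate with the receptor Grm6, which acts on the channel Trpm1, and both were near 0 in brain. Grm6 had 0.0151 and 0.0373 TPM in brain, against 93.6 and 74.6 TPM in retina (-6.13, adjusted p = 3.1e-08). Trpm1 had 0.061 and 0.0732 TPM in brain, against 52.7 and 41.4 TPM in retina (-5.24). The partner proteins Gpr179 and Lrit3 differed by -5.45 and -5.76. Among the 8 metabotropic glutamate receptors, of which 4 were higher and 2 lower in brain, Grm6 held 0.00978% and 0.0229% of the mRNA in brain, against 61.0% and 57.2% in retina. Grik1, the kainate receptor of OFF bipolar cells, had 6.61 and 5.54 TPM in brain, against 53.3 and 54 TPM in retina (-2.72). Prkca, long used to stain rod bipolar cells, was also plentiful in brain, with 44.9 and 41.8 TPM in brain, against 138 and 117 TPM in retina (-1.29). Gng13 was not called by mRNA, with 159 and 179 TPM in brain, against 322 and 426 TPM in retina (-0.89). It was lower by footprints, with 32.8 and 29.2 TPM in brain, against 188 and 192 TPM in retina (-3.12). Its exons overlap those of Chtf18. Rgs7 was not called, with 38.5 and 44.5 TPM in brain, against 26.9 and 27.6 TPM in retina (0.82).

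Amacrine and horizontal cell genes were lower in brain in 11 of 12 by mRNA. The amacrine factor Tfap2b had 0.774 and 0.596 TPM in brain, against 100.5 and 90.4 TPM in retina (-5.60). Calretinin (Calb2), a calcium-binding protein, had 50.8 and 54.7 TPM in brain, against 597 and 708 TPM in retina (-3.36). Gjd2, which forms the electrical synapses of AII amacrine cells, had 7.7 and 8.92 TPM in brain, against 116 and 136 TPM in retina (-3.53). Ganglion cell genes were mixed, with 7 of 12 lower, 1 higher and 4 not called by mRNA. The ganglion cell factor Pou4f1 had 0.385 and 0.173 TPM in brain, against 24.5 and 25.8 TPM in retina (-4.12). Rbpms, an RNA-binding protein used to mark ganglion cells, had 1.73 and 1.72 TPM in brain, against 21.5 and 20.5 TPM in retina (-2.78). Sncg, a synuclein of ganglion cells, had 13.8 and 8.94 TPM in brain, against 463 and 525 TPM in retina (-5.11). Thy1, a surface protein of projection neurons, was higher in brain with 760.0 and 846 TPM in brain, against 233 and 279.6 TPM in retina (1.89). The neurofilaments of long axons were not called: Nefl had 309 and 351 TPM in brain, against 462 and 463 TPM in retina (-0.25), and Nefm and Nefh differed by -0.02 and -0.26. Exons of Nefl and Nefm overlap.

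**Figure D2:**
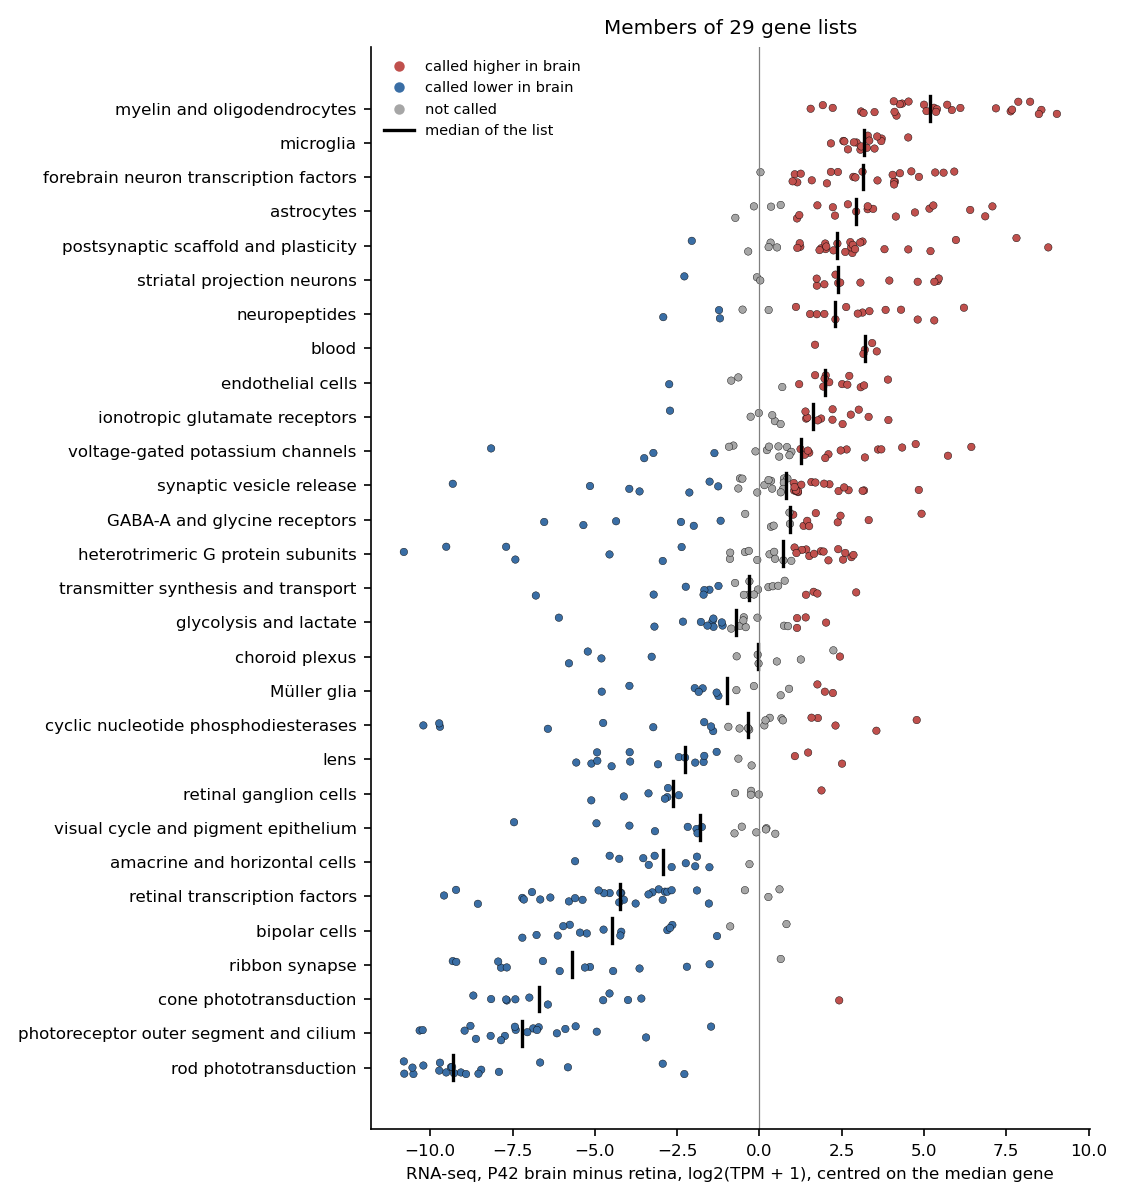
Differences in mRNA (log2(TPM + 1), brain minus retina, median gene at 0) of the tested members of 29 gene lists, 1 point a gene, coloured by call, with a bar at each list's median. The rod list lies between -10.80 and -2.28, and all myelin genes lie on the brain side of 0.

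The presynaptic machinery separated by kind of synapse. Of 14 ribbon synapse genes, 13 were lower in brain by mRNA (median -5.68) and 11 by footprints, where 1 was higher. Cacna1f, the calcium channel of photoreceptor terminals, had 0.144 and 0.111 TPM in brain, against 142 and 112 TPM in retina (-6.58). Its auxiliary subunit Cacna2d4 had 1.36 and 2.33 TPM in brain, against 253 and 192 TPM in retina (-6.07). Its calcium sensor Cabp4 had 0.743 and 0.707 TPM in brain, against 438 and 501 TPM in retina (-7.85). Ctbp2, whose gene also encodes the ribbon protein RIBEYE, had 3.9 and 3.95 TPM in brain, against 139 and 113 TPM in retina (-4.44). Complexins, which clamp and trigger fusion, divided in pairs. Those known from ribbon synapses were lower in brain. Cplx4 had 0.327 and 0.424 TPM in brain, against 1066 and 999.7 TPM in retina (-9.32, adjusted p = 3.84e-09). Cplx3 had 31.1 and 35.3 TPM in brain, against 465 and 539 TPM in retina (-3.64). Those of conventional synapses were higher in brain. Cplx1 had 815 and 1027 TPM in brain, against 199.6 and 206 TPM in retina (2.40). Cplx2 had 901 and 859 TPM in brain, against 171 and 176 TPM in retina (2.57). Of the mRNA of the 4 complexins, Cplx4 and Cplx3 together were the larger share in retina and Cplx1 and Cplx2 in brain: Cplx4 made up 0.0187% and 0.022% in brain and 56% and 52% in retina, and Cplx2 51.6% and 44.7% in brain and 9% and 9.14% in retina.

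Syntaxins, the target-membrane proteins of fusion, divided likewise. Stx3, the form at ribbons, had 11 and 11.3 TPM in brain, against 546 and 468 TPM in retina by mRNA (-5.15). Its footprints were 1.65 and 1.17 TPM in brain, against 104 and 68.8 TPM in retina (-5.69). Stx1a, a form of conventional synapses, was higher in brain with 301 and 338 TPM in brain, against 11.3 and 13 TPM in retina (4.84). Within the larger release list of 38 genes, 18 were higher in brain, 7 lower and 13 not called by mRNA (median 0.80), and 14, 6 and 18 by footprints (median 0.37). Common fusion and vesicle proteins were not called. Vamp2 had 932 and 981 TPM in brain, against 877 and 886 TPM in retina (0.35). Syt1, the calcium sensor of release, had 476 and 529.9 TPM in brain, against 549 and 518 TPM in retina (0.15). Sv2a differed by 0.28. Of the synapsins, which tether vesicles and are known to be missing from ribbon terminals, Syn2 was higher in brain with 180.0 and 149 TPM in brain, against 20.5 and 20.4 TPM in retina (3.18), as was Syn1 (2.13). Syn3 was not called, with 20.5 and 16.3 TPM in brain, against 12.2 and 12.9 TPM in retina (0.75), and its exons overlap Timp3. The priming factor Unc13b was lower in brain with 3.06 and 2.93 TPM in brain, against 82.4 and 62.8 TPM in retina (-3.95). Bsn, a scaffold of both kinds of synapse, was not called by mRNA, with 45.9 and 43.7 TPM in brain, against 39.2 and 28.5 TPM in retina (0.65). It was higher by footprints, with 38.2 and 35.8 TPM in brain, against 5.11 and 5.42 TPM in retina (2.06).

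**Figure D3:**
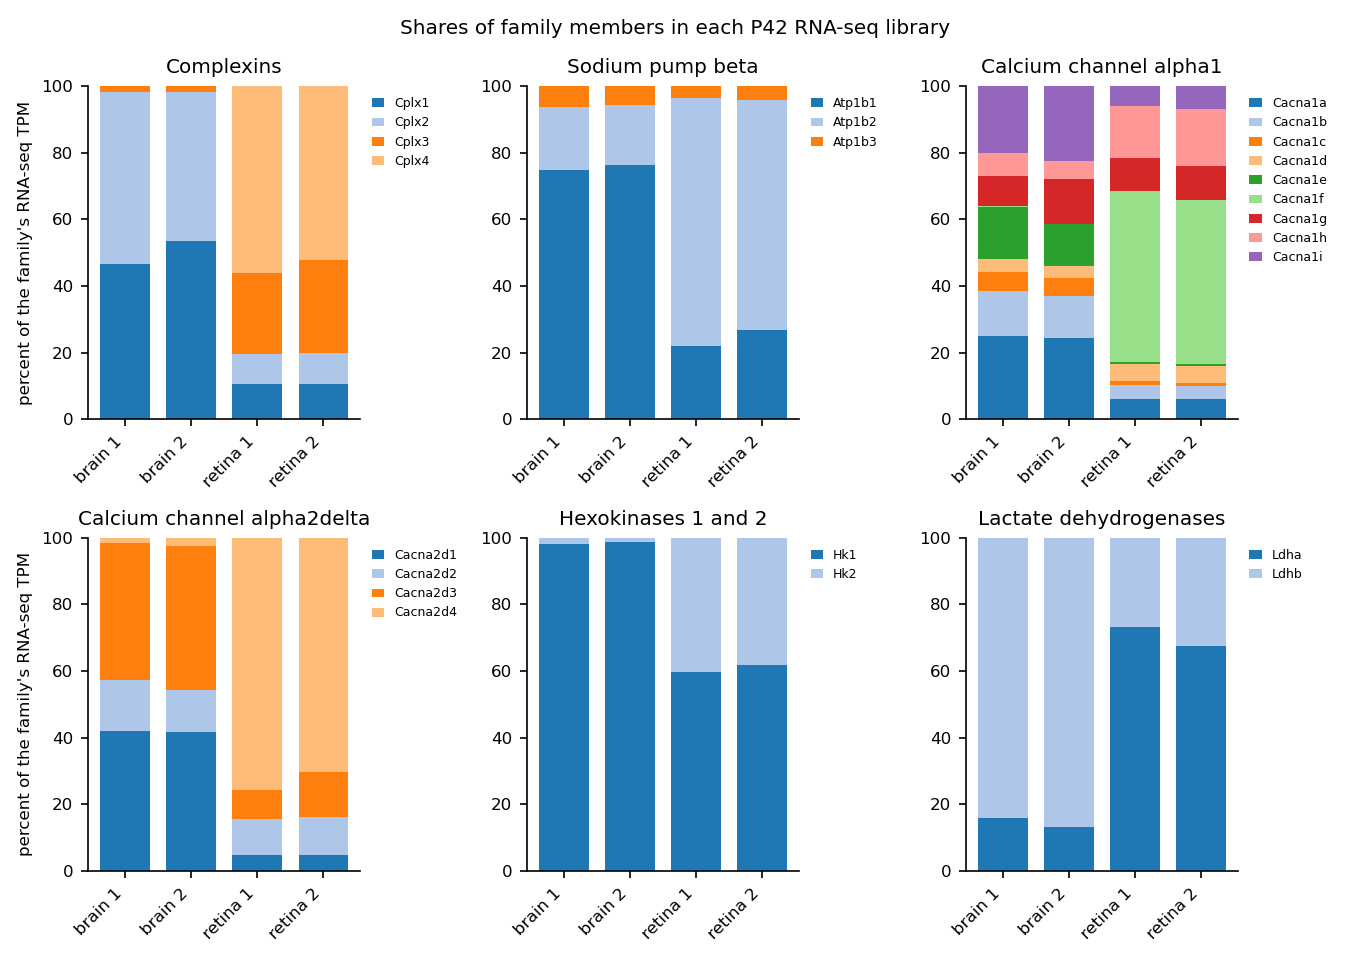
Percent of each family's RNA-seq TPM held by its members in each library, for 6 families, with the brain libraries left of the retina libraries. Cplx4 fills 0.0187% and 0.0220% of the complexin bars in brain, against 56.0% and 52.0% in retina, and Atp1b2 fills 19.1% and 18.1% of the sodium pump beta bars in brain, against 74.2% and 68.8% in retina.

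Postsynaptic scaffold and plasticity genes ran to the brain side, with 24 of 29 higher in brain, 1 lower and 4 not called by each assay (median 2.37 by mRNA and 2.14 by footprints). Nrgn (chr9:37544492-37552904, minus strand), neurogranin, a calmodulin-binding protein of dendrites, had 5445 and 6716 TPM in brain, against 27.5 and 34.4 TPM in retina (7.81, SE 0.159, adjusted p = 1.61e-08). Camk2a, the forebrain CaM kinase II subunit, had 1016 and 912 TPM in brain, against 17.5 and 16.7 TPM in retina by mRNA (5.97, adjusted p = 9.53e-09). Its footprints were 507 and 485 TPM in brain, against 6.24 and 5.27 TPM in retina (5.67). Ddn, a protein of dendrites and spines, had 1166 and 901 TPM in brain, against 1.4 and 2.17 TPM in retina (8.78). Vxn had 256 and 322 TPM in brain, against 0.943 and 0.822 TPM in retina (7.5). For each of these 4 genes both brain libraries were far above both retina libraries. The scaffolds Shank1, Shank3 and Homer1 differed by 2.25, 2.82 and 2.01, and Icam5, an adhesion molecule of forebrain dendrites, by 5.20. Dlg4, which encodes PSD-95, was not called and had 228 and 228 TPM in brain, against 231 and 195 TPM in retina (0.34). The gene lower in brain was Camk2d with 11.3 and 7.9 TPM in brain, against 53.4 and 47.2 TPM in retina (-2.05). Of the mRNA of the 4 CaM kinase II genes, Camk2a held 75.3% and 72.6% in brain and 10.1% and 10% in retina, and Camk2d 0.836% and 0.629% in brain and 30.8% and 28.3% in retina. Activity-induced genes were higher in brain in 9 of 17 and lower in 2. The spine protein Arc had 35 and 91.1 TPM in brain, against 2.03 and 1.88 TPM in retina (4.52). The transcription factor Egr4 had 40.8 and 37.5 TPM in brain, against 1.17 and 1.54 TPM in retina (4.33). Those lower were Btg2, with 8.79 and 11.5 TPM in brain, against 105 and 104 TPM in retina (-3.02), and Fos, with 7.09 and 11.1 TPM in brain, against 30.1 and 32.1 TPM in retina (-1.46).

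The receptors for glutamate and GABA differed in part. Of 18 ionotropic glutamate receptor subunits, 12 were higher in brain, 1 lower (Grik1) and 5 not called by mRNA (median 1.61). The AMPA receptor subunit Gria1 had 162 and 141 TPM in brain, against 25.8 and 24.6 TPM in retina (2.78). The NMDA receptor subunit Grin2a had 27.9 and 32.6 TPM in brain, against 2.74 and 2.62 TPM in retina (3.32). Grin1, Grin2b and Grin2c differed by 2.53, 3.02 and 3.92. Gria4 was not called, with 27.3 and 33.5 TPM in brain, against 45.2 and 41.6 TPM in retina (-0.27). Of 20 GABA-A and glycine receptor subunits tested, 9 were higher, 6 lower and 5 not called. Gabra5, an extrasynaptic subunit of hippocampus and cortex, had 59.1 and 51.5 TPM in brain, against 1.13 and 1.23 TPM in retina (4.93). Gabrd, another extrasynaptic subunit, had 63.1 and 86.1 TPM in brain, against 13.4 and 16.8 TPM in retina (2.46). On the retinal side were the Gabrr subunits of bipolar cells and the glycine receptor subunit Glra1 (-2.38). Gabrr1 had 0.25 and 0.207 TPM in brain, against 129 and 139 TPM in retina (-6.54). Gabrr2 had 1.4 and 1.09 TPM in brain, against 101 and 113 TPM in retina (-5.35).

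Of 21 genes that make, load or retrieve transmitters, 10 were not called by mRNA, 4 were higher and 7 lower in brain. The vesicular glutamate transporter Slc17a7 had 737 and 779 TPM in brain, against 1162 and 1081 TPM in retina by mRNA (-0.33, adjusted p = 0.0557). Its footprints were 175 and 165 TPM in brain, against 165 and 194 TPM in retina (-0.61), and these overlapped between tissues. Slc17a6, its counterpart in ganglion cells and thalamus, had 13.9 and 24.5 TPM in brain, against 39.2 and 35.6 TPM in retina (-0.74, adjusted p = 0.0172), under the size set for a call. Without the second brain library it was called, at -1.11. The vesicular GABA transporter Slc32a1 had 117 and 107 TPM in brain, against 101 and 118 TPM in retina (0.27). Of the enzymes that make GABA, Gad1 was not called, with 100.3 and 102 TPM in brain, against 87.1 and 92.7 TPM in retina (0.41). Gad2 was higher in brain with 85.6 and 70 TPM in brain, against 30.1 and 27.1 TPM in retina (1.65). Lower in brain were the glycine transporters Slc6a9, with 25 and 30.3 TPM in brain, against 152 and 163 TPM in retina (-2.24), and Slc6a5 (-3.21). The photoreceptor and bipolar glutamate transporter Slc1a7 was lower too, with 0.268 and 0.161 TPM in brain, against 159.9 and 155 TPM in retina (-6.79). The acetylcholine genes Chat, Slc18a3 and Slc5a7 also differed, by -1.67, -1.70 and -1.24, at levels of at most 14.5 TPM in any library.

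Peptides and dopamine signalling set brain apart by some members only. Of 19 neuropeptide genes tested by mRNA, 14 were higher in brain and 3 lower. Somatostatin (Sst) had 1684 and 1475 TPM in brain, against 25.2 and 22.9 TPM in retina by mRNA (6.21). Its footprints were 481 and 491 TPM in brain, against 8.8 and 7.02 TPM in retina (5.24). Cck, the peptide of many cortical cells, had 1067 and 1247 TPM in brain, against 30.3 and 36.5 TPM in retina (5.31). Npy had 838 and 906 TPM in brain, against 87.2 and 116 TPM in retina (3.34). All 3 were present in retina, at lower levels. Those lower in brain were Cartpt, Tac2 (-1.20) and Agrp (-1.23), whose exons overlap Ctcf. Cartpt, found in direction-selective ganglion cells, had 28.9 and 18.4 TPM in brain, against 169 and 272 TPM in retina (-2.92). Of the striatal projection neuron list, 12 of 15 were higher by mRNA. The dopamine-regulated phosphatase inhibitor Ppp1r1b had 511 and 475 TPM in brain, against 11.4 and 14 TPM in retina (5.42). The adenosine receptor Adora2a had 57.3 and 51.5 TPM in brain, against 0.419 and 0.57 TPM in retina (5.45). Proenkephalin (Penk), the precursor of enkephalins, had 878 and 656 TPM in brain, against 51.5 and 18.5 TPM in retina (4.81). The dopamine receptors of these neurons were not called. Drd1 had 31.9 and 27 TPM in brain, against 36.3 and 37.1 TPM in retina (-0.08). Drd2 had 50.3 and 46 TPM in brain, against 54.1 and 57.7 TPM in retina (0.03). Drd4, the receptor of photoreceptors, was lower in brain with 0.242 and 0.718 TPM in brain, against 157 and 176 TPM in retina (-6.60). Of 15 monoamine genes tested, 6 were higher and 1 lower.

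Forebrain transcription factors were higher in brain in 22 of 23 tested by mRNA (median 3.13) and 20 of 23 by footprints (median 2.18). The cortical factor Emx1 had 36.7 and 44.7 TPM in brain, against 0.0256 and 0 TPM in retina (5.60). Neurod6, of pyramidal neurons, had 78.1 and 72.4 TPM in brain, against 1.82 and 2.46 TPM in retina (4.85). Tbr1, of deep cortical layers, had 54 and 58.9 TPM in brain, against 2.61 and 2.41 TPM in retina (4.27). Bcl11b, of corticospinal and striatal neurons, had 30.7 and 26 TPM in brain, against 0.97 and 1.08 TPM in retina (4.09). The interneuron factor Dlx1 had 22.4 and 20.8 TPM in brain, against 0.124 and 0.0539 TPM in retina (4.62). Cux1 was not called with 14.9 and 15.2 TPM in brain, against 18.3 and 16.7 TPM in retina (0.03). Some markers of other brain regions, picked after their values were seen, were near 0 in these libraries and too low to be tested. Gabra6, of cerebellar granule cells, had 0.0329 and 0 TPM in brain, against 0 and 0.0467 TPM in retina. En1, a factor of the midbrain and hindbrain, had 0.0623 and 0.0257 TPM in brain, against 0.106 and 0 TPM in retina. The serotonin transporter Slc6a4 had 0 and 0.0447 TPM in brain, against 0.0246 and 0.0514 TPM in retina. Other genes known from cerebellar neurons were present. Of that list 14 of 19 could be tested, 5 were higher in brain and 4 lower, and its mRNA summed to 454 and 579 TPM in brain, against 456 and 569 TPM in retina. The largest part of the brain sum was that of Pvalb, which cortical interneurons also make, with 226 and 354 TPM in brain, against 49.7 and 71.5 TPM in retina (2.47).

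Myelin and oligodendrocyte genes were all higher in brain by mRNA, 28 of 28 with a median of 5.19, and 26 of 28 were higher by footprints (median 3.63). Mobp (chr9:120149707-120181484, plus strand), a protein of compact myelin, had 458 and 584 TPM in brain, against 0.244 and 0.0849 TPM in retina by mRNA (9.04, SE 0.145, adjusted p = 6.25e-09). Its footprints were 46 and 37.8 TPM in brain, against 0.0999 and 0 TPM in retina (4.81), and its mRNA difference was the largest on the brain side among genes called by both assays. Its exons overlap Gm38642. Mbp, which holds the membrane layers together, had 1191 and 1586 TPM in brain, against 10.7 and 9.62 TPM in retina (7.19, SE 0.149, adjusted p = 1.74e-08). The tight junction protein Cldn11 had 443 and 534 TPM in brain, against 0.567 and 0.467 TPM in retina (8.57). Mog, on the outer face of the sheath, had 260.1 and 349 TPM in brain, against 0.786 and 0.307 TPM in retina (7.87). Mag, at the contact with the axon, had 194 and 258 TPM in brain, against 0.329 and 0.343 TPM in retina (7.63). The proteolipid Mal had 539 and 705 TPM in brain, against 2.25 and 2.89 TPM in retina (7.68). None of these genes had overlapping values between tissues. The lineage factors were as one-sided. Olig1 had 296 and 329 TPM in brain, against 0.0258 and 0.0269 TPM in retina (8.49). Sox10 had 51.4 and 58.8 TPM in brain, against 0.366 and 0.801 TPM in retina (5.40). Olig2 had 44.7 and 51.2 TPM in brain and was listed at 0 in both retina libraries. The progenitor receptor Pdgfra, also made by retinal astrocytes, differed less, with 14.8 and 12.3 TPM in brain, against 4.07 and 2.99 TPM in retina (1.93). Gal3st1 (0.99) and Trf (0.94) were the genes not called by footprints.

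The promoter of Mobp (chr9:120149492-120149741, plus strand, GRCm38.p6, from RefSeq) is shown as that of the gene with the largest brain-side difference. ACAAAG, a core that SOX factors such as Sox10 bind, was searched with its other-strand form CTTTGT in the same 250 bases. Counted by gene as above, it stood in a promoter of 18.6% of all genes. It stood in 5 of 19 myelin (26.3%), 6 of 19 forebrain transcription factor (31.6%), 3 of 20 postsynaptic (15%) and 1 of 18 astrocyte promoters (5.56%). Among retinal lists it stood in 4 of 7 cone (57.1%), 5 of 17 outer segment (29.4%), 2 of 9 ribbon synapse (22.2%), 2 of 13 rod (15.4%) and 2 of 13 bipolar cell promoters (15.4%), so the myelin share was not the highest. The Mobp promoter held 6, and 2.02% of all genes had a promoter with at least 2. Capitals mark the core.
Mobp: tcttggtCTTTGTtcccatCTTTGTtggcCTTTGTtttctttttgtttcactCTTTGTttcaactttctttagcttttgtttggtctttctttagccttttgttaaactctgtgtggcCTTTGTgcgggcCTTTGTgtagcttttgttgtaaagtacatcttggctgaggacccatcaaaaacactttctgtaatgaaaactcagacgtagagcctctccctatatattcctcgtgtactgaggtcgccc

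**Figure D4:**
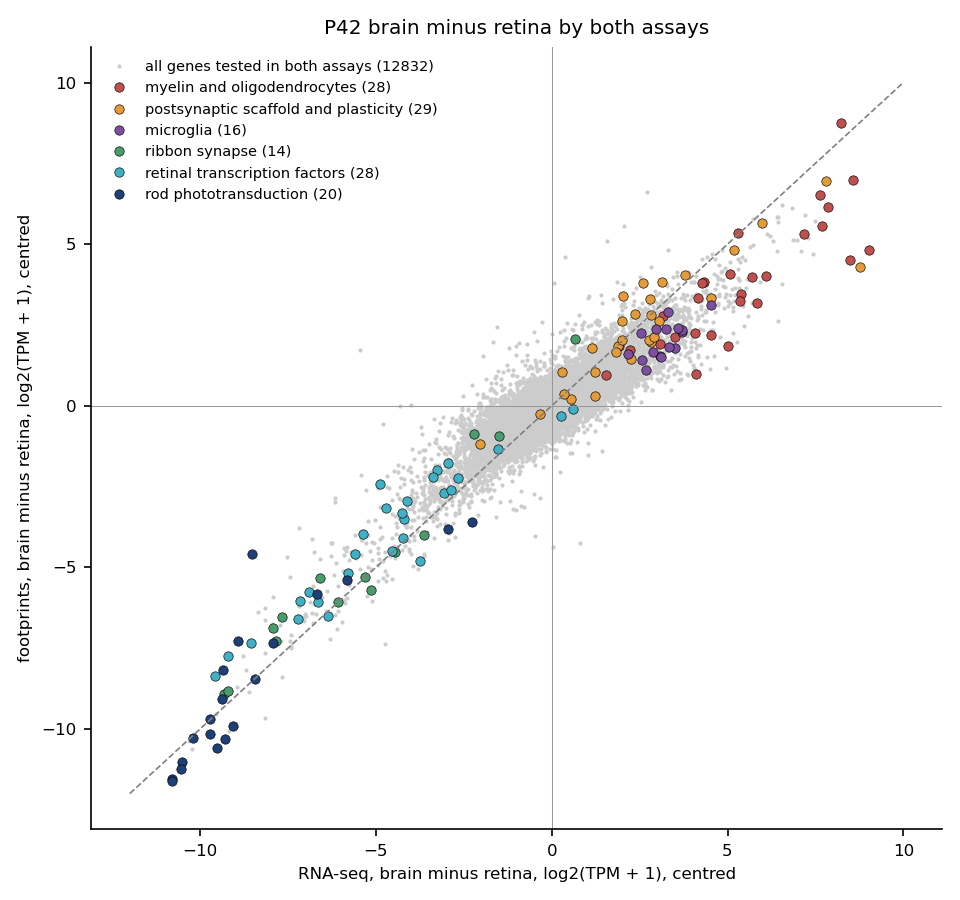
Difference by mRNA (x axis) against difference by footprints (y axis), both in log2(TPM + 1) of brain minus retina with the median gene at 0, for 12832 genes in grey and 6 lists in colour, with a dashed line of equal differences. Rod genes and most retinal factor and ribbon genes lie at the lower left, and myelin and microglia genes and most postsynaptic genes at the upper right, with myelin genes mostly under the line (medians 5.19 by mRNA and 3.63 by footprints). The scale understates differences of genes with low values. Of the 28 myelin genes 4 could be tested for footprints relative to mRNA, and 1 was lower in brain.

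Glia and vessels were unequal between the tissues as well. Astrocyte genes were higher in brain in 17 of 21 by mRNA (median 2.94), while 14 were higher and 2 lower by footprints. Gfap had 143 and 109 TPM in brain, against 13.7 and 14.6 TPM in retina by mRNA (3.29). Its footprints were 35.6 and 35.8 TPM in brain, against 5.03 and 4.63 TPM in retina (2.12). The gap junction gene Gja1 had 68.9 and 55.2 TPM in brain, against 2.52 and 1.22 TPM in retina (4.73), and Gjb6 differed by 6.4. Genes that Müller glia share with astrocytes did not have 1 direction. The water channel Aqp4 had 68.3 and 51.4 TPM in brain, against 62 and 48.2 TPM in retina (0.35, adjusted p = 0.0875). Glutamine synthetase (Glul) had 1568 and 1385 TPM in brain, against 1914 and 1989.8 TPM in retina (-0.17) and was lower by footprints (-1.42). The glutamate transporter Slc1a3 was higher in brain with 220.3 and 171 TPM in brain, against 68.4 and 65.6 TPM in retina (1.76). Müller glia genes were 3 higher, 7 lower and 4 not called by mRNA, with the retinoid binder Rlbp1 at 21.3 and 17.7 TPM in brain, against 333 and 413 TPM in retina (-3.95), Dkk3 at -1.25 and Vim at -1.72. Apoe was higher in brain with 2761 and 2457 TPM in brain, against 576 and 741 TPM in retina (2.23), but its footprint call (1.16) was lost when either brain footprint library was left out (adjusted p = 0.0528 and 0.062) and was 0.86 without the second retina library.

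Microglial genes were higher in brain in 16 of 16 by each assay (median 3.18 by mRNA and 2.03 by footprints), among them the complement gene C1qa with 185 and 162 TPM in brain, against 12.7 and 16.8 TPM in retina (3.72). The homeostatic marker Tmem119 had 33 and 24.6 TPM in brain, against 2.15 and 2.01 TPM in retina (3.50). The fractalkine receptor Cx3cr1 differed by 3.26. Endothelial genes were higher in 12 of 16 by mRNA and lower in 1, while 7 were higher and 3 lower by footprints. The tight junction gene Cldn5 had 81.7 and 82.9 TPM in brain, against 11.2 and 10.1 TPM in retina (3.08). The blood-brain barrier lipid transporter Mfsd2a had 56 and 44.1 TPM in brain, against 2.63 and 3.39 TPM in retina (3.90). The VEGF receptor Kdr was lower in brain, with 4.48 and 4.29 TPM in brain, against 41.2 and 41.8 TPM in retina by mRNA (-2.74) and a footprint difference of -3.33. The VEGF receptor Flt1 and the glucose transporter Slc2a1 were lower by footprints only (-1.04 and -1.39), with mRNA differences of -0.64 and -0.86. Blood genes moved with these: all 5 tested were higher in brain by mRNA and 3 by footprints (1 to 5 when a library was left out). The globin Hbb-bs had 212 and 143 TPM in brain, against 18.2 and 18.3 TPM in retina (3.43). The blood in the tissue was not measured apart, and its part in the vascular result was not tested.

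The choroid plexus and the lens, which a dissection could include, stood apart within a tissue. Choroid plexus mRNA summed to 4442 TPM in the first brain library and to 270 TPM in the second, against 676 and 797 TPM in retina. Ttr, the plexus's secreted thyroxine carrier, had 4079 and 141 TPM in brain, against 142 and 248 TPM in retina by mRNA and was not called (2.25, adjusted p = 0.139). Its footprints were 412 and 631 TPM in brain, against 56.4 and 84.9 TPM in retina (2.33). The list had 1 gene higher and 4 lower in brain of 11 by mRNA, 1 and 7 without the first brain library, and 6 and 4 without the second. Lens genes were lower in brain in 14 of 19 tested. Crybb2 had 0.122 and 0.101 TPM in brain, against 23.7 and 81.2 TPM in retina (-5.11). Cryaa differed by -5.57, and both were higher in the second retina library. Cryab, which glia also make, was higher in brain, with 220.0 and 284 TPM in brain, against 82.8 and 133 TPM in retina (1.48).

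Genes of energy supply and ion transport differed by isoform. Photoreceptors are known for aerobic glycolysis, and 10 of 23 glycolysis and lactate genes were lower in brain, 4 higher and 9 not called by mRNA (median -0.59). Hexokinase 2 (Hk2) had 2.26 and 1.64 TPM in brain, against 256 and 215 TPM in retina by mRNA (-6.09). Its footprints were 1.73 and 1.21 TPM in brain, against 155 and 122 TPM in retina (-6.35). Hk1, the usual brain form, had 115 and 114 TPM in brain, against 381 and 350.2 TPM in retina (-1.43) and was not called by footprints (-0.27). The lactate dehydrogenase subunits differed in opposite directions, with Ldha at 209 and 201 TPM in brain, against 849 and 819 TPM in retina (-1.78). Ldhb had 1119.8 and 1322 TPM in brain, against 313 and 395 TPM in retina (2.03). The lactate transporters Slc16a1 and Slc16a3 were lower in brain. Slc16a1 had 19.3 and 24 TPM in brain, against 131 and 132 TPM in retina (-2.32), and Slc16a3 differed by -3.19. The beta subunits of the sodium pump also differed in opposite directions, with Atp1b1 at 1549 and 1673 TPM in brain, against 531 and 569 TPM in retina (1.79). Atp1b2 had 397 and 398 TPM in brain, against 1782 and 1457 TPM in retina (-1.78). Of 13 mitochondrially encoded genes, 4 were higher in brain, 0 lower and 9 not called by mRNA (median 0.48, range -0.05 to 2.94). By footprints 1 of 12 was higher and 0 lower (median 0.31). Among those not called by mRNA was mt-Co1, with 16836 and 15566 TPM in brain, against 15691 and 14327 TPM in retina (0.35).

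Channels and G proteins differed by member too. Of 12 sodium and HCN channel genes, 6 were higher in brain and 3 lower by mRNA. Hcn2 had 189 and 228 TPM in brain, against 37.7 and 41.4 TPM in retina (2.60). The sodium channel beta subunit Scn4b differed by 4.71. Potassium channel genes were 15 higher, 4 lower and 10 not called of 29. On the brain side were Kcnv1 (5.73) and Kcnf1 (4.34), silent subunits that modify other channels. The largest difference of the list was on the retinal side, that of Kcnv2 (-8.15). Of 31 G protein subunits, 14 were higher and 7 lower, with the striatal Gnal at 127 and 121 TPM in brain, against 27.6 and 26.4 TPM in retina (2.39). The common neuronal Gnao1 was not called (0.45). Among phosphodiesterases, Pde2a had 205 and 179.6 TPM in brain, against 7.69 and 6.92 TPM in retina (4.78), and Pde1a differed by 3.55. Among RGS proteins, Rgs14 and Rgs4 differed by 5.21 and 2.91. By mRNA, phosphodiesterases were 5 higher and 9 lower of 23, RGS proteins 8 and 4 of 18, and calcium channel genes 11 and 6 of 23.

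Whether footprints differed between tissues by more or less than mRNA was tested over all 8 libraries for 9493 genes with enough mRNA in both tissues. In all 9.52% were called, 597 (6.29%) higher in brain and 307 (3.23%) lower, relative to a median of 0.70 taken off. Not centred, these were 2915 and 34. By list, 4 of 35 synaptic release genes tested were higher and 1 lower. Higher were 1 of 15 potassium channel genes, 2 of 10 sodium and HCN channel genes and 1 of 10 ionotropic glutamate receptor genes. Of 18 calcium channel genes 1 was higher and 1 lower. The glial and endothelial lists lay on the lower side. Lower were 5 of 7 microglial, 5 of 15 astrocyte, 3 of 13 Müller glia and 2 of 5 endothelial genes tested, and 0 were higher in these lists. Their medians were -1.13, -0.72, -0.71 and -0.88. Other lists had low medians too, with -0.77 for rod, -0.75 for neuropeptide and -0.53 for cerebellar neuron genes. Exon bases of the microglial list ran from 667 to 5774, and of all genes under 2000 bases 10.5% were called lower. The part of length in these lists was not tested. Genes named here were chosen from those called. Pclo, the active zone scaffold, had 18.2 and 17.8 TPM in brain, against 69.6 and 39.4 TPM in retina by mRNA (-1.25, adjusted p = 0.00136). Its footprints were 62.5 and 56.6 TPM in brain, against 18 and 19.1 TPM in retina (1.09), so it was called in opposite directions and differed between assays by 2.42 (adjusted p = 7.98e-05). Without the first retina RNA-seq library its mRNA difference was -0.84 and not called. Doc2a, Unc13a, Bsn, Kcna1, Gria2 and Scn8a differed between assays by 2.39, 1.37, 1.49, 1.87, 1.82 and 1.68. Of these genes Pclo, Unc13a, Bsn, Gria2 and Scn8a have 22457, 12623, 15938, 15548 and 15766 exon bases, lengths at which calls on this side were most frequent. Scn8a, the axonal sodium channel, was not called by mRNA with 41.2 and 52.8 TPM in brain, against 33 and 26.7 TPM in retina (0.87). Its footprints were 44.1 and 38.6 TPM in brain, against 4.09 and 4.33 TPM in retina (2.48). Among those lower were Mbp (-1.79), Rom1 (-1.43) and Rgs9 (-1.25).

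The 5 largest on the higher side were Apoa2 (4.31), Kmt2a (3.14), Ranbp6 (2.88), R3hdm2 (2.84) and Supt16 (2.72). Kmt2a, a histone methyltransferase, had 6.45 and 5.91 TPM in brain, against 141 and 86.5 TPM in retina by mRNA (-3.72). Its footprints were 8.19 and 7.8 TPM in brain, against 8.53 and 8.89 TPM in retina. Apoa2, a liver apolipoprotein, had 137 and 133 TPM in brain, against 1.74 and 4.4 TPM in retina by footprints. Its mRNA was 4.87 and 12.9 TPM in brain, against 6.86 and 7.69 TPM in retina. Genes of 16 liver proteins summed to 971 and 977 TPM in brain footprints, against 4.60 and 36.5 TPM in retina footprints. The brain sums were 0.737% and 0.741% of the sum in liver footprints. Their mRNA summed to 13.5 and 56.3 TPM in brain and 17.8 and 22.9 TPM in retina. The 5 largest on the lower side were Rpl27a (-4.99), Ncapd2 (-3.49), Kif5a (-2.77), Pcp2 (-2.55) and Rapgef4 (-2.52). Kif5a, a motor of axonal transport, had 1336 and 1324 TPM in brain, against 128 and 124 TPM in retina by mRNA (3.63). Its footprints were 126 and 118 TPM in brain, against 49.1 and 47.4 TPM in retina and were not called (0.79). Exons of Rpl27a overlap Snora3 and those of Ncapd2 overlap Scarna10, small noncoding RNAs. Ncapd2 had 6.07 and 5.59 TPM in brain, against 224 and 25.1 TPM in retina by footprints and lost its call when either brain footprint library was left out (adjusted p = 0.0556 and 0.052). Pcp2 exons overlap Pet100.

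In all, 15 genes were called in opposite directions by the assays. Higher by mRNA and lower by footprints were Rpl12, Rps2 and Hist1h4h, and exons of Rpl12 and Rps2 overlap small nucleolar RNA genes. Lower by mRNA and higher by footprints were 12, among them Pclo, the presynaptic proteins Mycbp2 (-1.10 by mRNA and 1.09 by footprints) and Stxbp5l (-1.01 and 1.85), the imprinted Peg3 (-1.27 and 1.25), Glp2r (-5.47 and 1.73), whose exons overlap Gas7, the liver genes Hamp, Gnmt, Serpinc1 and Cfi, and 4930402H24Rik, Zkscan16 and Col19a1.

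The assay difference moved with gene length. Genes higher in brain for footprints relative to mRNA had a median of 7635 exon bases, and those lower had 2257.5, against 4393.5 over all genes tested. Of 1600 genes with at least 8000 exon bases, 17.6% were higher and 0.56% lower, and of 1290 genes with under 2000 bases, 2.71% were higher and 10.5% lower. The trend lay in mRNA, where the median difference was 0.43 in the shortest class and -0.36 in the longest, and not in footprints, at -0.03 and 0.05. The retina RNA-seq libraries differed from each other along it, with replicate 1 minus replicate 2 at -0.26 in the shortest class and 0.19 in the longest, against -0.05 and -0.03 between the brain libraries. Without the first retina RNA-seq library 11.7% of the longest class were higher, and without the second 23.1%. With the length trend taken off, 402 genes were higher and 227 lower, of which 333 and 155 were shared with the calls above. The mRNA calls also moved with length: 25.7% of the shortest class were higher and 8.76% lower, against 10.9% and 24.2% of the longest. Without the trend 2996 genes were higher and 2858 lower by mRNA, of which 2760 and 2578 were shared with the main calls. Then 1 gene was higher by mRNA and lower by footprints, and 7 were the reverse. The cause of the trend was not tested.

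**Figure D5:**
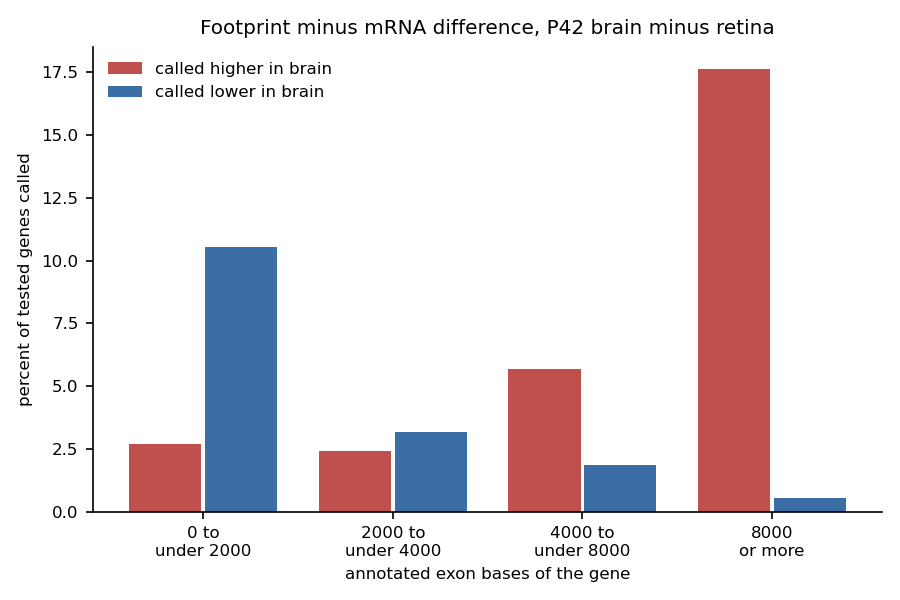
Percent of tested genes called higher or lower in brain for footprints relative to mRNA, in 4 classes of exon bases (under 2000, 2000 to 4000, 4000 to 8000, and 8000 or more). The share called higher is 2.71% in the shortest class and 17.62% in the longest, and the share called lower is 10.54% and 0.56%.

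At E15.5 the same tissues were compared within their own tables, and the stages were not tested against each other. There 2471 of 14465 genes were higher in brain (17.1%) and 1540 lower (10.6%) by mRNA, and 1619 (12.7%) and 1318 (10.4%) of 12714 by footprints. Of the genes higher in brain at P42 by mRNA and tested at both stages, 46.1% were also higher at E15.5, which is 58.1% of the E15.5 list, and of those lower 19.8% were also lower at E15.5, which is 40.0% of the E15.5 list. Forebrain factors were already higher, in 19 of 24, with Neurod6 at 8.37 at E15.5 and 4.85 at P42. Retinal factors were lower in 20 of 28 and higher in 4, where none was higher at P42, with Crx at -6.68 at E15.5 and -9.58 at P42 and Nrl at -1.56 at E15.5 and -9.22 at P42. Those 4 were Bhlhe22 (2.36), Bhlhe23 (1.33), Prdm8 (2.46) and Esrrb (1.43), of which Bhlhe23, Prdm8 and Esrrb were lower in brain at P42 (-4.89, -1.54 and -6.66). Of the 20 rod genes only 4 reached the level to be tested by mRNA at E15.5 and 1 was lower in brain. By footprints 7 were tested, with 5 lower and 1 higher. Cone genes were lower in 8 of 9 by mRNA and 5 of 5 by footprints, and outer segment genes in 9 of 17 and 10 of 13. Of 12 ribbon genes tested by mRNA 6 were lower (median -1.10 at E15.5 and -5.68 at P42), and 1 of 7 by footprints. Myelin genes were 11 higher and 1 lower of 21 (median 1.39), with Mbp at -0.58 and not called at E15.5 and 7.19 at P42.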

How the data were processed

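The deposited tables hold TPM values per gene, made by the authors from each library. Per the submitters' processing notes the tools were CASAVA 1.8.2, cutadapt 1.8.1, TopHat2 2.0.14 and featureCounts 1.6.2 with GRCm38.p6. The annotation, the strand setting and the features over which TPM was summed are not given in the sources here. Tissue was frozen and then lysed in a buffer with cycloheximide, per the labels' protocols, ribosomal RNA was depleted with Ribo-Zero, footprints were prepared with ARTseq and poly(A) mRNA libraries with VAHTS. TPM keeps no depth, so depth per library is unknown and no interval from counts is given.

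From these values, log2(TPM + 1) was fitted with limma 3.58.1 (R 4.3.3, trended variance) within each assay over the 4 P42 libraries of brain and retina, for genes at 1 TPM or more in at least 2 of them. The median contrast was taken off before the test, and p-values were adjusted by Benjamini-Hochberg. A fold on this scale understates the change of low genes. Genes listed at 0 in both libraries of a tissue are given no fold. Footprint minus mRNA was the interaction over 8 libraries, for genes with a mean of at least 5 TPM of mRNA in each tissue. The labels call the replicates biological and no source ties them to animals, so p-values measure the spread between these libraries. Brain and retina replicates of the same number did not deviate together (correlation of deviations 0.03 by mRNA and -0.07 by footprints), so no block entered the fit. Of 22055 identifiers, 21952 matched the reference annotation of GRCm38.p6, and 6537 had exons that overlap those of another gene. On simulated data with 200 changed genes, every gene changed by 1.5 log2 or more was called. The changed genes were drawn only from those above a set mean level, so recovery of low genes was not tested. Far fewer genes were changed than were called in the data, so centring under such a share was not tested either.

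Genes were named by a rule: the 10 largest in each direction called by both assays, up to 5 per list called by both, any member called in opposite directions, the 5 largest assay differences each way, and 1 list of standard markers. The members and lists were chosen with earlier results of these data known. Family members, uncalled members and other genes named outside that rule, the lists of liver proteins, the classes of exon length and the motifs were chosen after their values were seen. Alternatives covered pseudocounts, filters, centring, a replicate block, wider fits and each library left out. Promoter sequences are from RefSeq, and Python 3.11.15, numpy 2.4.6, pandas 2.3.3 and matplotlib 3.10.9 were used.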

Additional observations from a re-analysis of the deposited data

Results flagged for a closer look

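Of the listed and named genes, 10 were called by both assays at both stages with opposite signs, every brain library lying on one side of every retina library at E15.5 and on the other side at P42. The difference between stages was not tested, and a further 20 had opposite signs by 1 assay only. Of all 13739 genes tested by mRNA at both stages, 139 were higher at P42 and lower at E15.5, and 152 the reverse. By footprints these were 59 and 68 of 11834. The share of all genes with opposite signs by both assays was not counted. Rlbp1, the retinoid binder of Müller glia, differed by 2.41 by mRNA and 2.62 by footprints at E15.5, and by -3.95 and -4.97 at P42. Gjd2, the connexin of electrical synapses, differed by 2.38 and 1.22 at E15.5 and by -3.53 and -3.31 at P42. Aqp1, a water channel of choroid plexus, differed by 3.25 and 2.35 at E15.5 and by -5.21 and -3.57 at P42. Kcne2, a potassium channel subunit of choroid plexus, differed by 4.58 and 2.87 at E15.5 and by -4.80 and -4.82 at P42, with 8.19 and 0.42 TPM in brain, against 109.5 and 127 TPM in retina by mRNA at P42. Choroid plexus mRNA summed to 4442 and 270 TPM in the P42 brain libraries, and its part in the values of Aqp1 and Kcne2 was not tested. Tac2, a tachykinin precursor, differed by 2.06 and 1.11 at E15.5 and by -1.20 and -1.99 at P42. The retinal factor list's Prdm8 differed by 2.46 and 2.61 at E15.5 and by -1.54 and -1.34 at P42. Lhx1, a factor of horizontal cells, differed by 2.51 and 1.30 at E15.5 and by -1.95 and -1.88 at P42. The caveolin Cav1 differed by 3.74 and 2.22 at E15.5 and by -1.84 and -2.34 at P42. The channel gene Hcn3, whose exons overlap Pklr, differed by 1.29 and 1.00 at E15.5 and by -1.28 and -1.21 at P42. Ppp1r14a, of the myelin list, was the 1 of these with the reverse order and differed by -1.15 and -1.59 at E15.5 and by 4.08 and 2.26 at P42.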

How the results depend on the processing

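Brain and retina libraries of the same number did not deviate together (correlation 0.03 by mRNA and -0.07 by footprints), which cannot show whether they were paired. With a replicate block 3133 genes were higher and 3009 lower by mRNA, 2064 and 1698 by footprints, and 599 and 312 for footprints minus mRNA. Under a pseudocount of 4 the footprint counts were 1355 and 865, and without centring 3979 and 856. For footprints minus mRNA they were 201 and 100 with a floor of 20 TPM, 902 and 533 with a floor of 1 TPM, and 2915 and 34 without centring. With each library left out in turn the counts ran from 3019 to 3238 and 2733 to 3219 by mRNA, 2000 to 2109 and 1629 to 1825 by footprints, and 422 to 784 and 215 to 480 for footprints minus mRNA, the last without the second retina RNA-seq library. Over the list members they ran from 281 to 286 and 193 to 202 by mRNA and from 253 to 260 and 189 to 194 by footprints. Of 398 single-gene values, 375 kept their call under every alternative run, 20 lost it under at least 1, and 3 gained one (Slc17a6, Ttr and Kif5a). Of values called in the main fit or in the alternative, 0 changed sign. Sign changes of values called in neither were not counted. The cause was not tested in any of these. Both with and without centring and with the other scalings run, 2503 higher and 2990 lower calls by mRNA remained, and 1978 and 854 by footprints. TPM keeps no depth, so what depth limits at low values is unknown.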

Other observations

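Genes that mark heart, kidney, liver and lung were listed in the footprint libraries, in some cases at levels that differed between replicates. Kidney genes summed to 46.2 and 23.6 TPM in brain footprints, against 1.6 and 542 TPM in retina footprints, and heart genes to 148 and 43.2 TPM in brain, against 8.13 and 8.10 TPM in retina. By mRNA the kidney genes summed to 9.48 and 6.50 TPM in brain, against 7.31 and 7.24 TPM in retina. When every gene was left out whose higher tissue held under 5% of its level in one of those organs, 1883 genes were higher and 1661 lower in brain by footprints, and 2946 and 2980 by mRNA.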
